A study of Rattus norvegicus with 4 samples.

Results

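The tags described here are the small RNA reads that begin with the first 18 nt of rat miR-31-5p, which RefSeq lists as miR-31a-5p. They were counted separately at 18 to 29 nt, the size of a mature microRNA (miRNA), and at 30 to 42 nt. There were 1288 such tags with 35316 reads in 4 libraries, of 2397853 distinct tags with 56420015 reads in all. The shorter class held 333 tags and 26135 reads, and the longer class 955 tags and 9181 reads. The cells were vascular smooth muscle cells from the aorta of Sprague-Dawley rats, grown with 10% FBS and then kept without serum for 48 h. They were left untreated as the control, or received 100 nM angiotensin II (Ang II) for 1 h, 3 h or 24 h; this hormone constricts vessels and stimulates smooth muscle. The study asked how the small RNAs of the treated cells differed from those of the untreated control. Each group is 1 library, so no difference below has a replicate check or a test, and every interval is an exact 95% interval for counting error alone. PCR copies are not independent molecules, so these intervals are too narrow for the spread between cultures. The labels give the control no time, and untreated cells of the same age as each treated library were not analysed here, so the effects of Ang II and of culture time cannot be told apart. The ratios after 1 h, 3 h and 24 h all share the same control library.

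A miRNA is cut from a longer transcript as a hairpin. In the nucleus Drosha makes the cut at the base of the stem, and in the cytoplasm Dicer cuts both strands next to the loop, which frees the 5p arm and the 3p arm and leaves the loop as a by-product. miR-31 is known in rat vascular smooth muscle cells as a miRNA that promotes growth and represses the Hippo pathway kinase gene Lats2, and in human tumours as a miRNA that is often lost or gained. The RefSeq hairpin and its products are printed here because the long tags can only be read against them (RefSeq, assembly GRCr8, chr5:108714849-108714954, minus strand; both mature arms are in capitals in the hairpin, and the seed, bases 2 to 8, in capitals in each arm).
Mir31 hairpin: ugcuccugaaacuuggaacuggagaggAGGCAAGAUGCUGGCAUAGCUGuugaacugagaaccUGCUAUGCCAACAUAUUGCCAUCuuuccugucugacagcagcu
miR-31a-5p: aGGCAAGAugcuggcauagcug
miR-31a-3p: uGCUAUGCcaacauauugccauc
In the hairpin, counted from its 5′ end, the 5p arm takes positions 28 to 49, the loop positions 50 to 63 and the 3p arm positions 64 to 86. The hairpin lies within the span of the lncRNA gene LOC130062807 (chr5:108714139-108743340), and whether that place is exonic or intronic was not examined. Of the 724 mature sequences in the table, miR-31a-5p alone carries its seed.

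The tags that carry the main result are shown next, as DNA, from the deposited reads. In the first 4 the loop is in capitals, in the 37-nt tag of the 5p arm with the first base of the 3p arm. In the last 3 the capitals start at the first base that differs from the hairpin, and that base is the only one to differ from the hairpin base at its place.
5p arm with loop, 36 nt: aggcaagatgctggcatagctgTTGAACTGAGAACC
5p arm with loop and 1 further base, 37 nt: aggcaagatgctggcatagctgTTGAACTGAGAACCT
5p arm from its second base with loop, 35 nt: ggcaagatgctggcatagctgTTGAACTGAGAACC
loop with 3p arm, 37 nt: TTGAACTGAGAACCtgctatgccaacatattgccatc
mature 5p arm, 22 nt: aggcaagatgctggcatagctg
5p arm with an added A, 23 nt: aggcaagatgctggcatagctgA
5p arm with 1 hairpin base and AG, 25 nt: aggcaagatgctggcatagctgtAG
5p arm with 1 hairpin base and AGA, 26 nt: aggcaagatgctggcatagctgtAGA

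The long tags of miR-31a-5p differed widely between the libraries while the tags of mature size did not. In RPM (reads per 1000000 reads that name a sequence), the long tags stood at 92.4 in the control, 312.7 after 1 h, 219.8 after 3 h and 40.5 after 24 h. They were thus high after 1 h and 3 h and lowest after 24 h. Relative to the control the long class was 3.39-fold after 1 h (3.18 to 3.60), 2.38-fold after 3 h (2.23 to 2.54) and 0.439-fold after 24 h (0.397 to 0.484). The tags of 18 to 29 nt stood at 484.1 RPM in the control, 441.6 after 1 h, 484.8 after 3 h and 440.7 after 24 h. Their ratios to the control were 0.912 after 1 h (0.881 to 0.945), 1.00 after 3 h (0.969 to 1.04) and 0.910 after 24 h (0.880 to 0.942), and with TMM or median-of-ratios factors the value after 24 h lay above the control. These 2 classes and the 4 times are what the tags were chosen on, so the values describe them and support nothing further. Fewer cells with these RNAs and less of them in each cell cannot be told apart in cultures read in bulk. All reads of 30 to 42 nt together, of any sequence, made up 8.87% of the control library, 7.28% after 1 h, 5.75% after 3 h and 7.27% after 24 h, so reads of this size as a whole were highest in the control.

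**Figure D1:**
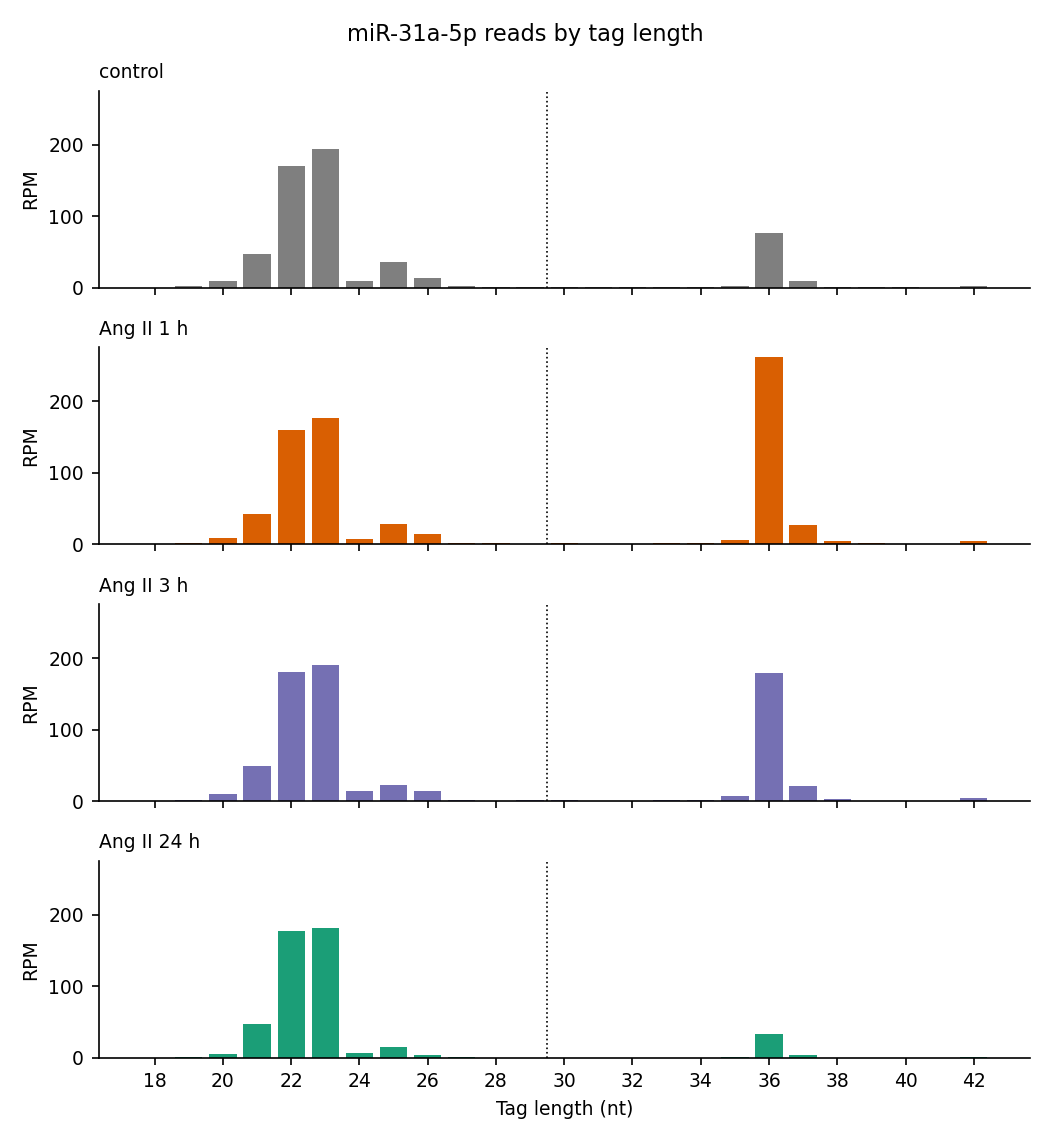
Reads of miR-31a-5p tags by tag length, in RPM, in the control and after 1 h, 3 h and 24 h of Ang II, 1 library each; the dotted line divides the 2 length classes. Each library has a group at 21 to 23 nt and a separate peak at 36 nt, which is 75.6 RPM in the control, 262.5 after 1 h, 179.3 after 3 h and 34.0 after 24 h.

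The long tags were nearly of 1 size. Tags of 36 and 37 nt held 92.0% of the long reads in the control, 92.5% after 1 h, 91.0% after 3 h and 94.2% after 24 h. Between the mature size and 36 nt there was a gap: tags of 30 to 35 nt stood at 3.82 RPM in the control, 12.3 after 1 h, 11.6 after 3 h and 1.38 after 24 h. The most read long tag, of 36 nt, runs from the first base of the 5p arm to position 63, the last base before the 3p arm. It had 626 reads in the control, 1974 after 1 h, 1599 after 3 h and 312 after 24 h. Its ratios to the control were 3.46 (3.16 to 3.79), 2.56 (2.33 to 2.81) and 0.494 (0.430 to 0.566). Of the 5263 long reads identical to the hairpin over their whole length, 85.7% ended at position 63, 9.63% at position 64 and 4.66% anywhere else. The share ending at position 63 lay between 83.9% after 3 h and 87.0% after 1 h, so the end of the long tags hardly differed between libraries although their number did.

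Sequence beyond the matched 18 nt followed the hairpin in most long reads. Over the 4 libraries 57.3% of them were identical to it, 31.7% had 1 to 3 internal mismatches and 7.27% first differed from it at one of the last 3 bases. Only 3 long reads held the first 12 nt of another miRNA, and 28 ended in bases like the 3′ adapter. Within the 36-nt tags, mismatches were most frequent at position 25 of the tag, in 14.5% of these reads in the control, 13.6% after 1 h, 12.8% after 3 h and 9.31% after 24 h. When the reads identical to the hairpin were taken alone, the long class had 729 reads in the control, 2269 after 1 h, 1906 after 3 h and 359 after 24 h, in the same order as all long tags. The 37-nt tag adds a T, which is also the next base of the hairpin, so a templated base and an added U cannot be told apart there; it had 80, 206, 189 and 32 reads in the control and after 1 h, 3 h and 24 h. Beyond it, the 36-nt form with TT, where the hairpin has TG, had 36 reads over the 4 libraries, against 10 reads with TG.

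Among the tags of mature size the main forms moved little. The 22-nt mature sequence had 158.4 RPM in the control, 151.6 after 1 h, 169.2 after 3 h and 168.0 after 24 h. The 23-nt form, which adds the next hairpin base, had 141.2, 133.1, 144.1 and 139.0 RPM in the same order. Every ratio of these 2 tags to the control lay between 0.942 and 1.07. The 23-nt form with an A that the hairpin does not hold had 41.4 RPM in the control, 33.6 after 1 h, 35.4 after 3 h and 30.96 after 24 h, a ratio of 0.748 after 24 h (0.660 to 0.847).

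Longer tags within the 18 to 29 nt class comprised a part identical to the hairpin and a part that was not, with different courses. Tags of 24 to 29 nt identical to the hairpin had 62 reads in the control, 83 after 1 h, 216 after 3 h and 47 after 24 h. Relative to the control they were 1.47-fold after 1 h (1.04 to 2.08), 3.49-fold after 3 h (2.62 to 4.71) and 0.751-fold after 24 h (0.503 to 1.11), so these were highest after 3 h. Tags of 24 to 29 nt that depart from the hairpin had 818 reads in the control, 613 after 1 h, 551 after 3 h and 349 after 24 h, with ratios of 0.822 (0.739 to 0.914), 0.675 (0.605 to 0.753) and 0.423 (0.372 to 0.480). The largest of them is the 25-nt tag that ends in AG, with 25.1 RPM in the control, 18.4 after 1 h, 10.1 after 3 h and 9.77 after 24 h, a ratio of 0.389 after 24 h (0.318 to 0.473). Together the tags of 24 to 29 nt were 12.6% of the class in the control, 12.0% after 1 h, 11.0% after 3 h and 6.18% after 24 h. For all miRNAs that share was 4.31%, 4.37%, 4.36% and 3.72%.

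The remaining reads of the hairpin, which the choice of tags did not use, covered the 3p arm and the loop. Their groups, here and in the next paragraph, were formed after their values were seen, so these values are a description. The 3p arm from its annotated first base had 335 reads in the control, 453 after 1 h, 472 after 3 h and 485 after 24 h, that is 23.3, 34.5, 32.8 and 33.4 RPM. It was above the control at every time, at 1.48-fold (1.29 to 1.71), 1.41-fold (1.22 to 1.63) and 1.43-fold (1.24 to 1.65), and stayed there after 24 h, when the long 5p tags lay below the control. The mature 5p reads outnumbered these 3p reads 20.8 times in the control, 12.8 times after 1 h, 14.8 times after 3 h and 13.2 times after 24 h. Tags of 30 to 42 nt that begin at the loop and run through the 3p arm, the mirror image of the long 5p tags, had 42 reads in the control, 65 after 1 h, 92 after 3 h and 42 after 24 h. Their ratios were 1.70 (1.13 to 2.57), 2.19 (1.51 to 3.24) and 0.990 (0.630 to 1.56), and the long 5p tags outnumbered them 31.7, 63.1, 34.3 and 14.02 times.

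Long 5p tags and 3p tags displaced by 1 base were above the control after 1 h and 3 h and had their fewest reads after 24 h. Long 5p tags that begin at the second base of the arm had 32 reads in the control, 144 after 1 h, 95 after 3 h and 10 after 24 h, with ratios of 4.94 (3.35 to 7.49), 2.97 (1.97 to 4.59) and 0.310 (0.136 to 0.645). Of all 5p tags beginning there, 86.5% of reads were long in the control, 91.1% after 1 h, 86.4% after 3 h and 52.6% after 24 h, against 16.0%, 41.5%, 31.2% and 8.42% of those that begin at the first base. The 5p tags of 18 to 29 nt from the second base were few, with 5 reads in the control, 14 after 1 h, 15 after 3 h and 9 after 24 h, and were lowest in the control. The 3p arm from its second base, which starts right after the 3′ end of the 37-nt tag, had 25 reads in the control, 72 after 1 h, 66 after 3 h and 13 after 24 h. That is 3.16-fold after 1 h (1.98 to 5.20), 2.64-fold after 3 h (1.65 to 4.37) and 0.515-fold after 24 h (0.242 to 1.05). The interval after 24 h holds 1, and the levels after 1 h (4.29 to 6.91 RPM) and 3 h (3.55 to 5.84 RPM) overlap. The 3p arm from its second base made up 6.94%, 13.7%, 12.3% and 2.61% of the reads of both 3p starts. Reads that begin well before the 5p arm, at positions 3 to 10 of the hairpin, were few. They numbered 3 in the control, 29 after 1 h, 24 after 3 h and 2 after 24 h, wherever they end. On the opposite strand RefSeq lists Mir3554 with miR-31b (chr5:108714909-108714927, plus strand). It had 0 reads in every library. A floor of 3 reads, a fixed setting and not an exact interval, equals 0.208 RPM in the control, 0.229 after 1 h, 0.209 after 3 h and 0.206 after 24 h.

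**Figure D2:**
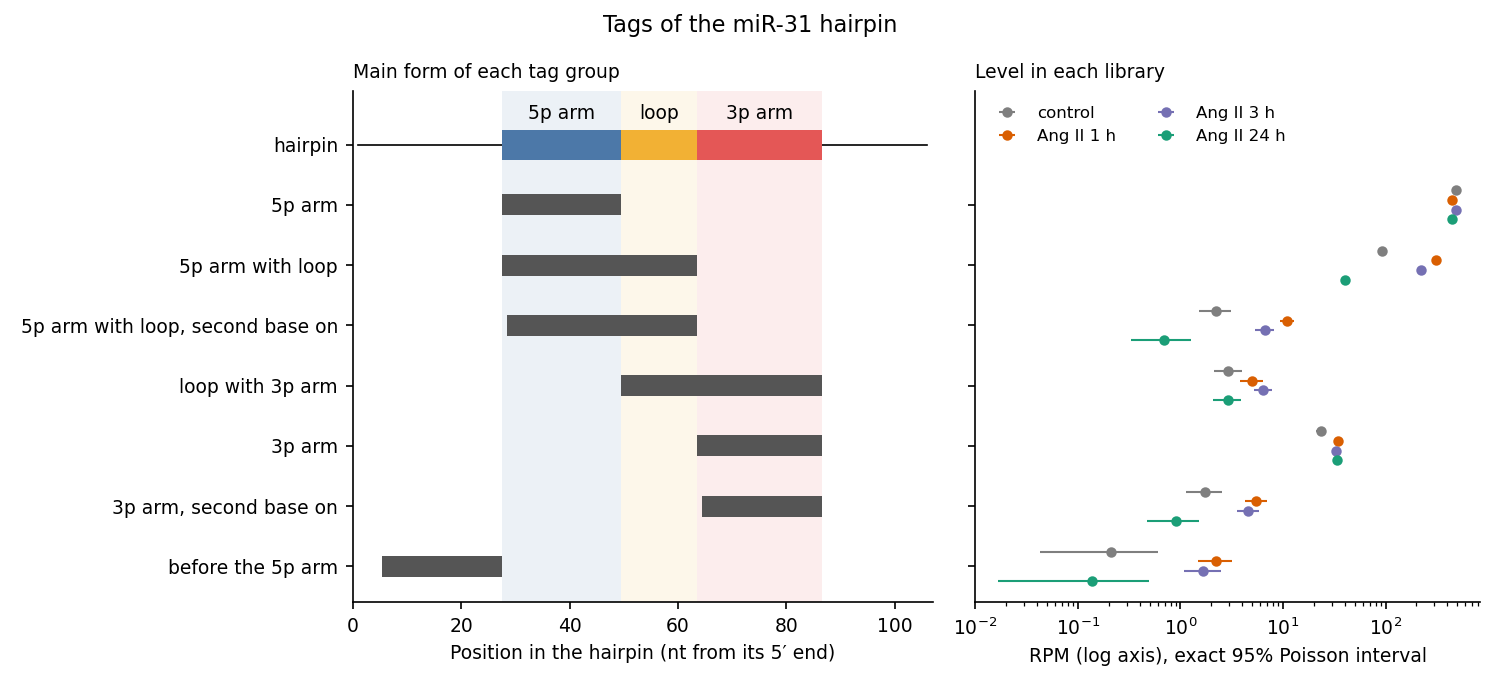
The main form of each group of tags drawn to scale along the miR-31 hairpin (left, positions in nt from its 5′ end) and the level of each group in the 4 libraries (right, RPM on a log axis, with exact 95% Poisson intervals). The long 5p tags end where the 3p arm begins. The long 5p tags from the second base of the arm are highest after 1 h and lowest after 24 h, as the long 5p tags are. The 3p tags from the second base of their arm are above the control after 1 h and 3 h, where their intervals overlap.

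**Figure D3:**
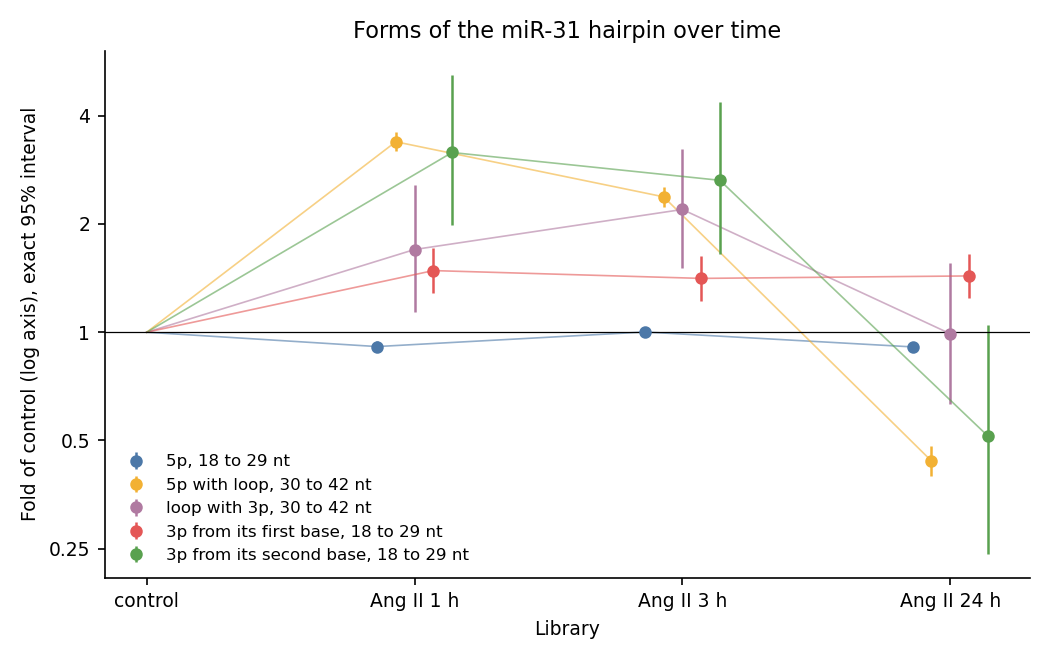
Levels of 5 groups of miR-31 tags relative to the control library (log axis, exact 95% intervals for counting error) after 1 h, 3 h and 24 h of Ang II, with the control set to 1. The 5p tags of 18 to 29 nt stay between 0.910 and 1.00, the 3p arm from its first base between 1.41 and 1.48, and the long 5p tags span 3.39 to 0.439.

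Among all miRNAs counted in the same way, long tags were rare. Of 130 miRNAs with at least 1000 reads over the 4 libraries (miRNAs with the same first 18 nt counted together), the median share of reads in tags of 30 to 42 nt was 0.0495%, and 7 had at least 1%. Over the pooled libraries miR-31a-5p, with 25.997%, was the highest of the 22 that also had 100 long reads. Next came miR-143-5p, the minor arm of the smooth muscle miRNA miR-143, with 15.4%, then miR-22-3p with 7.87%, miR-222-3p with 5.33% and miR-30c-5p with 0.486%. This order did not hold in each library: after 24 h miR-31a-5p had 8.42%, below miR-143-5p with 18.6% and miR-22-3p with 8.71%, and in the control it had 16.0% beside 15.1% for miR-143-5p. Of all long miRNA reads, miR-31a-5p held 21.5% in the control, 45.8% after 1 h, 36.9% after 3 h and 8.83% after 24 h. Without it the long miRNA reads summed to 337.7 RPM in the control, 369.7 after 1 h, 375.9 after 3 h and 418.6 after 24 h, so they were highest after 24 h, where the long tags of miR-31a-5p were lowest.

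**Figure D4:**
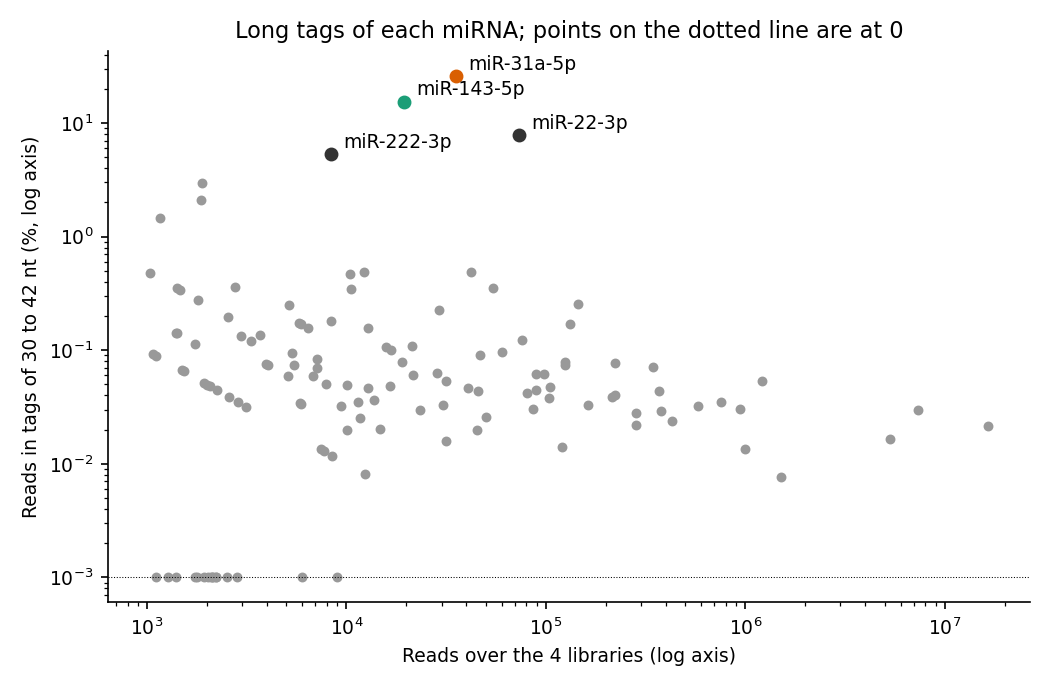
Share of reads in tags of 30 to 42 nt over the 4 libraries (percent, log axis) against total reads (log axis) for 130 miRNAs with at least 1000 reads; points on the dotted line have no long read. miR-31a-5p at 25.997% and miR-143-5p at 15.4% lie far above the median of 0.0495%; these are pooled shares, and after 24 h alone miR-31a-5p, at 8.42%, is below miR-143-5p at 18.6% and miR-22-3p at 8.71%.

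What the long tags hold also differed between these miRNAs. For 19 of the 22 the table has a hairpin that reaches 30 nt from the start of the miRNA. In miR-31a-5p 92.7% of the long reads followed their own hairpin over the first 30 nt with at most 1 mismatch, and in miR-143-5p 98.0% did. In the other 17 the share was at most 9.10% (miR-21-5p), and in 11 of them it was 0. These 17 include 3p arms, such as miR-22-3p and miR-143-3p, which the loop does not follow, so they are not compared like with like. Among the 5p arms of the 17, miR-21-5p was highest, and miR-30c-5p, miR-146b-5p and miR-145-5p were at 0. Over 205 hairpins whose 5p arm and loop together would fit into a read, 75 had at least 100 reads of the 5p arm. Of these, 2 had at least 100 reads that run from the 5p arm through the loop and end within 1 nt of the 3p arm, which were miR-31a-5p with 5162 and miR-143-5p with 2484. Another 3 had 10 to 99 such reads, 7 had 1 to 9, and 63 had none. The loop with the 3p arm was also read most often in these hairpins, 199 times for miR-31 and 76 times for miR-143. These reads were counted by the rule used over all hairpins. For miR-31 it gave fewer reads than the grouping above, with 38 against 42 in the control.

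The tag of miR-143-5p is printed for comparison (rat chr18:57371395-57371428, minus strand, GRCr8; loop in capitals).
miR-143-5p with loop, 34 nt: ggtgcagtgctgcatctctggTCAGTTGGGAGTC
These 2 kinds of loop tag had different courses. As a share of the reads of its 5p arm, the miR-31 form was 8.68% in the control, 22.6% after 1 h, 18.3% after 3 h and 5.03% after 24 h, and the miR-143 form 12.3%, 11.1%, 10.6% and 16.0%. In RPM relative to the control, the miR-31 form was 3.40-fold after 1 h (3.13 to 3.71), 2.58-fold after 3 h (2.37 to 2.82) and 0.484-fold after 24 h (0.425 to 0.551). The miR-143 form was 0.886-fold (0.784 to 1.00), 0.787-fold (0.695 to 0.890) and 1.59-fold (1.43 to 1.76). Both forms were chosen with their values known, so these ratios are a description. Both ratios use the same control library and the same total reads, so a change of scaling would move both by the same factor.

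**Figure D5:**
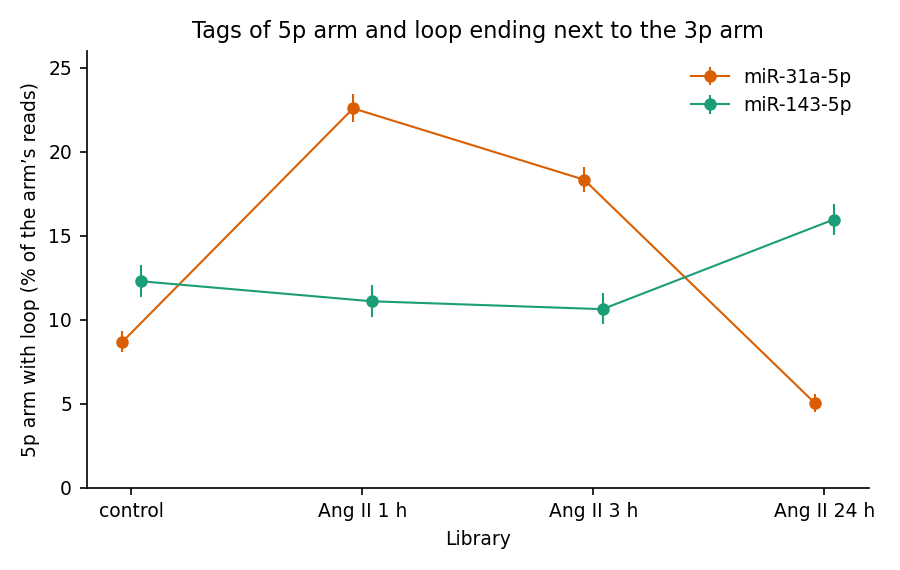
Tags of 5p arm and loop that end within 1 nt of the 3p arm, as a percentage of all reads of that 5p arm, for miR-31a-5p and miR-143-5p in the 4 libraries, with exact 95% Clopper-Pearson intervals. miR-31a-5p peaks at 22.6% after 1 h and is at 5.03% after 24 h, where miR-143-5p is at its highest with 16.0%.

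For the long tags of all miRNAs a limit of 1.5-fold, with 100 reads in the higher library, was used to describe the libraries. After 1 h 4 of the 10 measured passed it upward (40%), namely miR-31a-5p, miR-30a-5p, miR-143-3p and let-7a-5p with let-7c-5p. After 3 h miR-31a-5p was the 1 of 8 that was higher (12.5%), and after 24 h the 1 of 9 that was lower (11.1%), with 3 of 9 higher (33.3%), namely miR-21-5p, miR-146b-5p and miR-143-5p. Since miR-31a-5p was chosen on these values, nothing is read from its place among them. Its log2 ratios on the log2(RPM + 1) scale were 1.75, 1.24 and -1.17, where the medians of all measured miRNAs were 0.48, 0.31 and 0.26. The long tags whose ratios were nearest to it, by root-mean-square difference over the 3 times among 6 miRNAs with 100 long reads in every library, were those of let-7a-5p with let-7c-5p, at a distance of 1.00 and with log2 ratios of 0.70, 0.29 and -0.16. They were followed by miR-143-3p, let-7b-5p, miR-21-5p and miR-22-3p at 1.29 to 1.60. None of these 5 was above the control after 1 h and 3 h and past 1.5-fold below it after 24 h. Their long reads are of another kind: at most 9.10% followed their own hairpin, against 92.7% in miR-31a-5p. For let-7b-5p no hairpin could be compared.

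In tags of 18 to 29 nt miR-31a-5p passed the limit at no time. After 1 h 4 of 168 miRNAs were higher (2.38%) and 4 lower (2.38%), after 3 h 7 of 170 higher (4.12%) and 7 lower (4.12%), and after 24 h 9 of 172 higher (5.23%) and 29 lower (16.9%). The excess of lower ones after 24 h depends on the scaling. TMM factors gave 14 higher and 9 lower, median-of-ratios factors 12 higher and 10 lower, and scaling to miRNA reads 9 higher and 43 lower. Its log2 ratios were -0.13, 0.0021 and -0.14, near the medians of -0.11, -0.05 and -0.24. The 5 miRNAs nearest to it among 152 were miR-192-5p, miR-126a-3p, miR-28-5p, miR-27b-5p and miR-29a-3p, at distances of 0.027 to 0.069. The 6 miRNAs linked to the synthetic, dividing state of smooth muscle were miR-21-5p, miR-221-3p, miR-222-3p, miR-146a-5p, miR-26a-5p and miR-24-3p. They had 0.0134% to 0.467% of their reads in long tags, apart from miR-222-3p with 5.33%. The 4 linked to the contractile state (miR-143-3p, miR-145-5p, miR-1-3p and miR-133a-3p) had 0% to 0.169%. Of these 10, miR-133a-3p had at most 11 reads in a library and could not reach the limit, and the other 9 did not pass it in tags of mature size after 1 h, 3 h or 24 h.

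The libraries held 14395539 reads that name a sequence in the control, 13119417 after 1 h, 14370167 after 3 h and 14534892 after 24 h, of which 68.4% to 74.4% began like a miRNA in the table. Of the smooth muscle markers, miR-143-3p stood at 302746 to 309897 RPM with Ang II and at 248149 RPM in the control, and miR-145-5p at 2213 to 2458 RPM with Ang II and at 2271 RPM in the control; their part in the ratios was not tested. The endothelial arms miR-126a-3p and miR-126a-5p summed to 104.9 to 125.4 RPM. The striated muscle markers miR-1-3p, miR-133a-3p and miR-206-3p summed to 98.4 to 122.1 RPM, of which miR-1-3p alone held 96.7 to 119.3 RPM. Both miR-1-3p and miR-133a-3p are also in the contractile list above. The epithelial markers miR-200c-3p, miR-141-3p and miR-203a-3p summed to 3.97 to 6.71 RPM, and the blood markers miR-142-3p and miR-451-5p to less than 1 RPM. Reads with an unread base made up 0.352% of the control library and 0.127% to 0.155% of the others, and their part in the ratios was not tested beyond the count of reads identical to the hairpin given above.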

How the data were processed

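Small RNA of 17 to 52 nt was selected; per the labels' protocols, libraries were made from 0.5 ug of total RNA with 12 PCR cycles and read on an Illumina Genome Analyzer IIx. The authors deposited, for each library, the raw read count of each distinct sequence (tag), and these counts are raw. Novoalign and the build rn4 appear in the submitters' processing notes with no role; trimming and filtering steps are not given in the sources used here. All tags are 16 to 42 nt long, and a row that names no sequence (5.13% to 7.07% of a file's reads) was left out of all totals. Each library was mapped to its group by its source label.

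Tags of at least 18 nt were given to a miRNA when their first 18 nt were identical to a mature sequence of RefSeq (724 mature sequences and 419 hairpins, GRCr8). Mature sequences with the same first 18 nt were counted together, and 400 such features had reads. Reads were scaled to all reads that name a sequence. Tags were compared with the hairpin base by base without gaps. Ratios have exact conditional binomial intervals, levels exact Poisson intervals and shares exact Clopper-Pearson intervals, at 95%. A miRNA passed the size limit at 1.5-fold on log2(RPM + 1) with 100 reads in the higher library. Matching, the size limit and the intervals were tested on simulated data.

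The tags, the lists and the limit were chosen with earlier results of these data known. Named miRNAs were the 5 with the highest long share, the 5 nearest to miR-31a-5p in each length class, and 2 lists of smooth muscle miRNAs; the groups of hairpin tags, and miR-143-5p as the comparison, were chosen after their values were seen. Of the blood markers, miR-142-5p had 0 reads in every library. No marker value is given for miR-223-3p, miR-150-5p, miR-200a-3p or miR-200b-3p. No reads were matched to them, and whether the reference holds them was not examined. Alternatives were 3 other scalings, a pseudocount of 10 RPM, a length limit of 28 nt, other matches, other read minimums, a 2-fold limit and ratios to the 1 h library. Software was edgeR 4.0.16 (TMM factors alone) in R 4.3.3, and Python 3.11.15, scipy 1.17.1, pandas 2.3.3 and numpy 2.4.6 with matplotlib 3.10.9.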

Additional observations from a re-analysis of the deposited data

How the results depend on the processing

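No paired analysis was possible because each group is 1 library, and no library could be left out. Under the 9 alternatives that keep the control as reference, the long tags of miR-31a-5p stayed past 1.5-fold, with log2 ratios of 1.66 to 1.85 at 1 h, 1.12 to 1.37 at 3 h and -1.25 to -0.91 at 24 h; the tags of 18 to 29 nt never passed it. With the 1 h library as the reference the long tags at 3 h lay below it (log2 ratio -0.51) and at 24 h further below (-2.92), and the tags of 18 to 29 nt stood at 0.13 and -0.0032. Scaled to miRNA reads the long tags had 1.66 at 1 h and 1.12 at 3 h, and the shorter tags -0.22, -0.12 and -0.21 at 1 h, 3 h and 24 h. With TMM factors the long tags had -0.91 at 24 h and the shorter tags -0.043, 0.062 and 0.12, above the control at 24 h. With median-of-ratios factors the long tags had 1.85 at 1 h and -0.93 at 24 h, and the shorter tags -0.028 at 1 h and 0.11 at 24 h. A pseudocount of 10 RPM gave 1.66 at 1 h and -1.02 at 24 h for the long tags. Without tags of 1 read the long tags had 1.35 at 3 h, and their shares of the reads were 14.01%, 39.2%, 29.7% and 7.32% in the control and at 1 h, 3 h and 24 h. With the whole mature sequence at the start of the tag these shares were 18.3%, 45.4%, 34.9% and 9.80%. With reads identical to the hairpin alone, a setting chosen after seeing the data, they were 12.4%, 33.6%, 25.6% and 6.38%, the long tags had 1.37 at 3 h and -1.01 at 24 h, and the shorter tags -0.075, 0.10 and 0.012.

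The factors of TMM and of median-of-ratios moved all ratios at 24 h up by 0.26 and 0.25 on the log2 scale. Counts of miRNAs past 1.5-fold in tags of 18 to 29 nt moved most. Scaled to miRNA reads 9 were lower at 1 h and 14 at 3 h, and at 24 h TMM factors left 14 higher and 9 lower and median-of-ratios factors 10 lower. With a pseudocount of 10 RPM 1, 4 and 12 were lower at 1 h, 3 h and 24 h, and with a minimum of 20 reads 8 and 13 were higher at 1 h and 3 h and 11 lower at 3 h. At 2-fold 0, 2 and 4 were lower at the 3 times and 3 higher at 24 h. In tags of 30 to 42 nt the pseudocount of 10 RPM left 1 higher at 1 h and 1 at 24 h, the 2-fold limit 1 and 0, and a minimum of 20 reads gave 1, 1 and 3 lower. The cause of these shifts was not tested. Depth limits the loop with 3p arm, the 3p arm from its second base and the reads that begin before the 5p arm, each with fewer than 100 reads in every library.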
